A study of Mus musculus with 12 samples.

Results

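The genes described here are 34 genes of the endoplasmic reticulum (ER) stress response, chosen as a list of symbols by what their products do and looked up in the deposited count table of all 12 libraries. Earlier results of these data were known when the list was chosen. All 34 of the listed symbols were found among 24062 genes, and all 34 passed the filter on low counts. Expression was measured by RNA-seq of whole kidneys from a mouse model in which Cre acts on Pkd1, the gene of polycystin-1 that is mutated in most people with autosomal dominant polycystic kidney disease. All mice were adults of the Pkd1 line, described as 6 to 8 weeks old and tamoxifen-induced. They had lost 1 kidney (unilateral nephrectomy, UNx) or had a sham operation that left 2 kidneys, and tissue was taken after 4 weeks. The groups were UNx CrePlus, UNx CreMinus, sham CrePlus and sham CreMinus, with 3 libraries each. The labels name neither the promoter that drives Cre nor the deleted part of Pkd1, and 1 sham CrePlus library (replicate 1) is titled by its group and not by an animal. CreMinus kidneys share the Pkd1 line, the tamoxifen and the surgery with CrePlus kidneys.

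The ER folds secreted and membrane proteins, and the unfolded protein response adjusts its capacity to the load. Chaperones such as BiP (Hspa5), lectin chaperones and disulfide isomerases fold clients, and clients that fail are pulled back to the cytosol and degraded. The sensors IRE1 (Ern1), PERK (Eif2ak3) and ATF6 (Atf6) respond to unfolded protein. IRE1 activates XBP1 by splicing, ATF6 is cut to release a transcription factor, and both raise chaperone and degradation genes. PERK slows translation and thereby raises ATF4, which induces amino acid genes such as Asns and the factor CHOP (Ddit3). Kidney tubule cells make large amounts of transporters and receptors in the ER, and in humans loss of SEC63, a member of the list, is a cause of polycystic liver disease. Gene counts measure transcript levels and do not show splicing of Xbp1, cleavage of ATF6 or the phosphorylation of PERK.

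Counts summed to 18914300 to 22480895 in 8 libraries while the deeper ones, at 41699032 to 42785476, were all 3 of UNx CrePlus and replicate 1 of UNx CreMinus. Xist and Y-linked counts showed 5 male libraries, which were UNx CrePlus replicates 1 and 2, UNx CreMinus replicate 1, sham CrePlus replicate 3 and sham CreMinus replicate 3. The other 7 were female, so sex and depth were unevenly spread over the UNx groups. Pkd1 averaged 43.4 ± 3.28 CPM in UNx CrePlus and 56.8 ± 12.9 CPM in UNx CreMinus kidneys, and 52.0 ± 10.5 CPM in sham CrePlus and 65.0 ± 10.3 CPM in sham CreMinus kidneys (SD, n = 3 each). Its log2 fold change with Cre, averaged over surgery, was -0.35 ± 0.13 (SE, adjusted p = 0.316), and reads outside the deleted part do not measure the deletion. Proximal tubule markers summed to 24350 to 63990 CPM in every library. Markers of the secretory cells with the most ER were low. Plasma and B cell markers (12 of 15 in the table) summed to 20.3 to 34.8 CPM. The immunoglobulin genes Ighm and Igkc were among those not found, so this sum leaves them out. Pancreas acinar markers (14 of 14) summed to 73.2 to 129.6 CPM. Of this sum Cela1 made 71.6 to 128 CPM, while Prss1 and Amy2a5 were at 0 in every group. CPM are library-scaled counts, that is, counts relative to the library total after TMM scaling.

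The levels of the 34 genes, set per kb of exon, spanned a wide range, and the abundant ones were the folding machinery. Calr (calreticulin), P4hb (protein disulfide isomerase) and Pdia3 (the isomerase that works with calreticulin) led with 310 ± 40.4, 290 ± 31.3 and 196 ± 23.3 CPM per kb (SD over 12 libraries). Hsp90b1 (GRP94), Herpud1 (a scaffold of ER-associated degradation), Hspa5 and Canx (calnexin) followed with levels of 185 ± 19.1, 174 ± 28.5, 130 ± 19.4 and 110 ± 7.74 CPM per kb. The neighbours P4hb and Calr, and likewise Pdia3, Hsp90b1 and Herpud1, differed by less than 1 SD. The sensors sat far lower, at levels of 11.2 CPM per kb for Atf6, 10.6 for Eif2ak3 and 2.91 for Ern1. The ATF4 and CHOP targets were low as well, with Ppp1r15a at 5.38, Asns at 1.96, Trib3 at 0.613 and Chac1 at 0.433 CPM per kb. Derl3, the derlin of secretory cells, had a level of 0.498 CPM per kb, against 43.1 for Derl1 and 9.97 for Derl2. Its counts were as low as 10 in a library and those of Chac1 as low as 7, so their values carry a large counting error.

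The spread between libraries was largest for 3 of the 4 ATF4 and CHOP targets and for Derl3. The highest library was 1.54 times the lowest for the median gene, 1.52 times for the median chaperone, 1.29 times for the median sensor and 2.62 times for the median ATF4 or CHOP target. This ratio was smallest for Canx (1.20), Sec63 (1.21) and Atf6 (1.22), and largest for Chac1 (3.22), Asns (2.90), Derl3 (2.75), Trib3 (2.34) and Edem1 (2.06). Whole kidney is a mixture of cell types, so fewer cells of a type and less RNA per cell cannot be told apart in any of the comparisons.

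**Figure D1:**
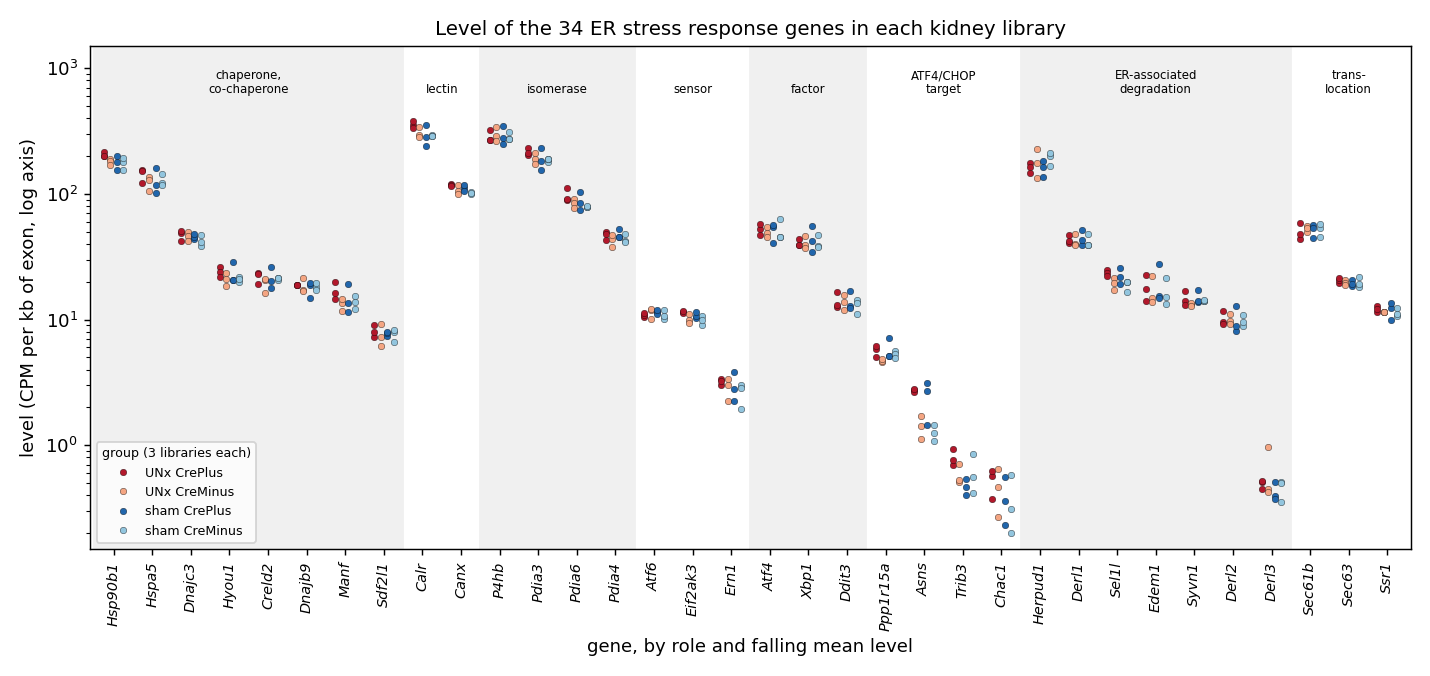
Level of each of the 34 genes in each of the 12 libraries in CPM per kb of exon (log axis), grouped by role; each point is a library, coloured by group. Calr is highest at 310 CPM per kb on average and Chac1 lowest at 0.433, and for Asns 2 of 3 sham CrePlus points and the 3 UNx CrePlus points lie above all CreMinus points.

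Many of these genes are known to share promoter elements, and the promoters of a chaperone pair, of a degradation gene and of Asns are shown because the results turn on these genes. RefSeq sequences of 250 bases before to 50 bases after the start (GRCm38.p6) were at hand for 30 of the 34 genes. The ER stress element was searched as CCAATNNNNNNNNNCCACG on both strands and was found in 9 of 30 genes, against 0.137% of all 27025 genes with a promoter. The second form, ATTGGNCCACG, was found in Herpud1 alone among the 30, against 0.0444% of all genes. The core of the amino acid response element, TGATGNAA, which ATF4 is known to bind with a partner, was found in Asns, Chac1, Herpud1 and Trib3, against 4.51% of all genes. The element TGACGTGG, known for XBP1 and ATF6, was found in 0 of 30 and in 0.714% of all genes. Because such elements are known from genes of this response, the shares describe the list and are not a test. A match is a run of letters and not a shown binding site. No match overlapped another in the 30 promoters. Capitals mark the matches in the promoters of Hspa5 (chr2:34771840-34772139, plus strand), Hsp90b1 (chr10:86705395-86705694, minus strand), Herpud1 (chr8:94386179-94386478, plus strand) and Asns (chr6:7693160-7693459, minus strand), each read 5′ to 3′ along its gene.
Hspa5: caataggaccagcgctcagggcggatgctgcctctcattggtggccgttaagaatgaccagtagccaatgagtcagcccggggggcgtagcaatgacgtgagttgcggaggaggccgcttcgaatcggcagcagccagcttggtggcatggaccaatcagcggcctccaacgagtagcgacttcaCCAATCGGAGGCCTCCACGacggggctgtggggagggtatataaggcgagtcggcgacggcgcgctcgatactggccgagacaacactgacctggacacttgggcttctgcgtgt
Hsp90b1: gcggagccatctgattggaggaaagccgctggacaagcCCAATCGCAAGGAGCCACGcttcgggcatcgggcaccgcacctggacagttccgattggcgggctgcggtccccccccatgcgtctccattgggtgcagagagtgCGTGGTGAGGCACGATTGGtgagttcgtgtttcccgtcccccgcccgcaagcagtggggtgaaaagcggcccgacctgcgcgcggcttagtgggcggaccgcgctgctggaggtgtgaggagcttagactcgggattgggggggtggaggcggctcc
Herpud1: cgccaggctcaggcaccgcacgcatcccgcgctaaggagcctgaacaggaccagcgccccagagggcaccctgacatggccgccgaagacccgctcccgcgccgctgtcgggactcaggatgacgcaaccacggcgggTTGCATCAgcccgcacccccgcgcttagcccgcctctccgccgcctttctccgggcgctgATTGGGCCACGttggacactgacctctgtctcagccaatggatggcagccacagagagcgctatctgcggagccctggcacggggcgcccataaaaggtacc
Asns: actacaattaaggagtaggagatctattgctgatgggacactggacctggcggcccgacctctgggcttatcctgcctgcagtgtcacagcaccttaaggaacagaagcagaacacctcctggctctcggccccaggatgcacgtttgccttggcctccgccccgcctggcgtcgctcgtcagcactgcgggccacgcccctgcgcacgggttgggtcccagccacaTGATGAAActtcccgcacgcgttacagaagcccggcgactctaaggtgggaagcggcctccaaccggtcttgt
The matches start 65 bases before the start of Hspa5, 212 and 107 bases before that of Hsp90b1, 52 (ER stress element, second form) and 112 (amino acid response core, on the other strand) before that of Herpud1, and 23 before that of Asns. The ER stress elements of the other 7 genes are given alone, as read along each gene, so that those on the other strand begin with CGTGG.
Calr: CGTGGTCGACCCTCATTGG
Derl3: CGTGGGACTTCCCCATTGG
Canx: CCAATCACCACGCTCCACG
Pdia6: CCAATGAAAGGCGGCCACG
Dnajc3: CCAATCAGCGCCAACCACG
Creld2: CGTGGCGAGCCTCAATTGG
Syvn1: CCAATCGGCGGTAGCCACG

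UNx CrePlus kidneys were set against UNx CreMinus kidneys, which gives the difference with Cre in the kidney that remained after nephrectomy. Most of the genes were slightly higher in UNx CrePlus kidneys, and none passed the test. Of 34 genes, 28 had a log2 fold change above 0, against 47.8% of all tested genes, and the median was 0.13 against -0.01 for all genes. Within groups many of the 34 varied together, as described below, so counts of signs, here and below, are not counts of independent observations. UNx CrePlus also held more male libraries, and 24 of 34 had a log2 fold change above 0 in males against females. None of the 34 was called at an adjusted p under 0.05 with edgeR's quasi-likelihood test, which called 0.14% of the 14970 genes. At an unadjusted p under 0.05 there was 1 (Asns), against 10.7% of all genes, and DESeq2 called the same gene alone, against 1.21% of all genes it tested. The libraries of the 2 groups did not overlap for 5 of the 34 genes, which were Hsp90b1, Eif2ak3, Asns, Ppp1r15a and Sel1l, a share close to the 15.8% of all genes.

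Asns (chr6:7675165-7693209), which encodes asparagine synthetase and is a standard target of ATF4, showed the largest difference. Here and in what follows, a value with ± in parentheses after CPM levels is a log2 fold change with its SE. It had 6.72, 6.45 and 6.80 CPM in UNx CrePlus kidneys, against 2.75, 4.19 and 3.50 CPM in UNx CreMinus kidneys. All 3 UNx CrePlus libraries were above all 3 UNx CreMinus libraries, for the male and for the female libraries. The log2 fold change was 0.94 ± 0.26 (SE, adjusted p = 0.291). DESeq2 gave 0.95 with an adjusted p of 0.0404, and in the authors' deposited table for this comparison Asns had 0.77 with an adjusted p of 0.00228, as 1 of 267 genes under 0.05 and the only one of the 34. The other targets of this arm were higher by less. Ppp1r15a (GADD34), the phosphatase subunit that restores translation, had 14.8, 17.3 and 18.0 CPM in UNx CrePlus kidneys, against 13.6, 13.75 and 14.3 CPM in UNx CreMinus kidneys (0.27 ± 0.14, adjusted p = 0.526). Trib3, a pseudokinase induced through ATF4 and CHOP, had 1.90, 1.40 and 1.53 CPM in UNx CrePlus kidneys, against 1.03, 1.43 and 1.06 CPM in UNx CreMinus kidneys, and the groups overlapped. Chac1, a glutathione-degrading enzyme, had 0.927, 0.615 and 1.03 CPM in UNx CrePlus kidneys, against 0.437, 1.06 and 0.760 CPM in UNx CreMinus kidneys, again with overlap.

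Among sensors and factors, Eif2ak3 (PERK) had 56.0, 54.2 and 56.9 CPM in UNx CrePlus kidneys, against 48.0, 53.35 and 45.8 CPM in UNx CreMinus kidneys (0.18 ± 0.08, adjusted p = 0.477). Its libraries did not overlap, and 8.05% of its exon bases lie opposite exons of Gm43292, whose reads the unstranded kit could not separate. Ern1 (IRE1) had 27.5, 24.5 and 26.4 CPM in UNx CrePlus kidneys, against 27.4, 24.7 and 18.3 CPM in UNx CreMinus kidneys. Atf6 had 76.5, 79.3 and 81.3 CPM in UNx CrePlus kidneys, against 86.4, 88.3 and 73.5 CPM in UNx CreMinus kidneys. Both overlapped between the groups, with log2 fold changes of 0.15 ± 0.22 for Ern1 and -0.07 ± 0.09 for Atf6. The log2 fold changes of the transcription factors were near 0, with -0.01 for Xbp1, 0.08 for Atf4 and 0.02 for Ddit3 (CHOP). Xbp1 had 116.5, 106 and 105 CPM in UNx CrePlus kidneys, against 124, 105.5 and 100.4 CPM in UNx CreMinus kidneys. Atf4 had 90.9, 98.5 and 80.4 CPM in UNx CrePlus kidneys, against 84.7, 77.6 and 93.8 CPM in UNx CreMinus kidneys. Both overlapped. Ddit3 had 14.6, 11.1 and 11.7 CPM in UNx CrePlus kidneys, against 10.6, 13.98 and 12.3 CPM in UNx CreMinus kidneys. The 2 groups overlapped over most of their range for this factor, which is known for its role in prolonged ER stress.

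All 8 chaperones and co-chaperones had log2 fold changes above 0 in UNx kidneys, between 0.03 and 0.35, and none was called. Hspa5, whose product BiP also holds the sensors inactive, had 579, 567 and 459.7 CPM in UNx CrePlus kidneys, against 512, 482 and 394 CPM in UNx CreMinus kidneys (0.21 ± 0.18). The groups overlapped. Hsp90b1 had 568, 613 and 569 CPM in UNx CrePlus kidneys, against 533, 519.5 and 476 CPM in UNx CreMinus kidneys (0.19 ± 0.12). These did not overlap, and 10.3% of its exon bases lie opposite exons of 1810014B01Rik. Manf, a secreted protein that is retained by BiP, had 57.5, 46.8 and 41.9 CPM in UNx CrePlus kidneys, against 38.9, 42.1 and 34.05 CPM in UNx CreMinus kidneys (0.35 ± 0.18, adjusted p = 0.541). Log2 fold changes of the other 5 were 0.19 for Hyou1, 0.18 for Creld2, 0.10 for Sdf2l1, 0.04 for Dnajc3 and 0.03 for Dnajb9. Those of the lectin chaperones were 0.22 for Calr and 0.13 for Canx, and those of the isomerases 0.21 for Pdia6, 0.16 for Pdia3, 0.13 for Pdia4 and -0.06 for P4hb. The libraries overlapped for all 6 lectins and isomerases.

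In ER-associated degradation, Sel1l, the adaptor of the ubiquitin ligase HRD1, had 156, 147.5 and 139 CPM in UNx CrePlus kidneys, against 135, 122 and 108 CPM in UNx CreMinus kidneys (0.28 ± 0.13, adjusted p = 0.470). The groups did not overlap. Syvn1 (HRD1 itself) had a log2 fold change of 0.16 and Edem1, which delivers glycoproteins to the ligase, one of 0.08. Herpud1, often used as a sensitive sign of ER stress, had 344, 285 and 321 CPM in UNx CrePlus kidneys, against 343, 442 and 261 CPM in UNx CreMinus kidneys (-0.14 ± 0.19). Derl3 had a log2 fold change of -0.30 ± 0.34, with 0.672, 0.591 and 0.687 CPM in UNx CrePlus kidneys, against 0.592, 1.29 and 0.557 CPM in UNx CreMinus kidneys, and 1 CreMinus library lay above all others. The log2 fold changes of the translocation genes were 0.09 for Ssr1, 0.05 for Sec63 and -0.08 for Sec61b, and those of Derl1 and Derl2 were 0.03 and 0.02. Among them Sec63, a co-chaperone of the translocon, had 117, 124 and 129 CPM in UNx CrePlus kidneys, against 126, 118 and 113 CPM in UNx CreMinus kidneys.

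**Figure D2:**
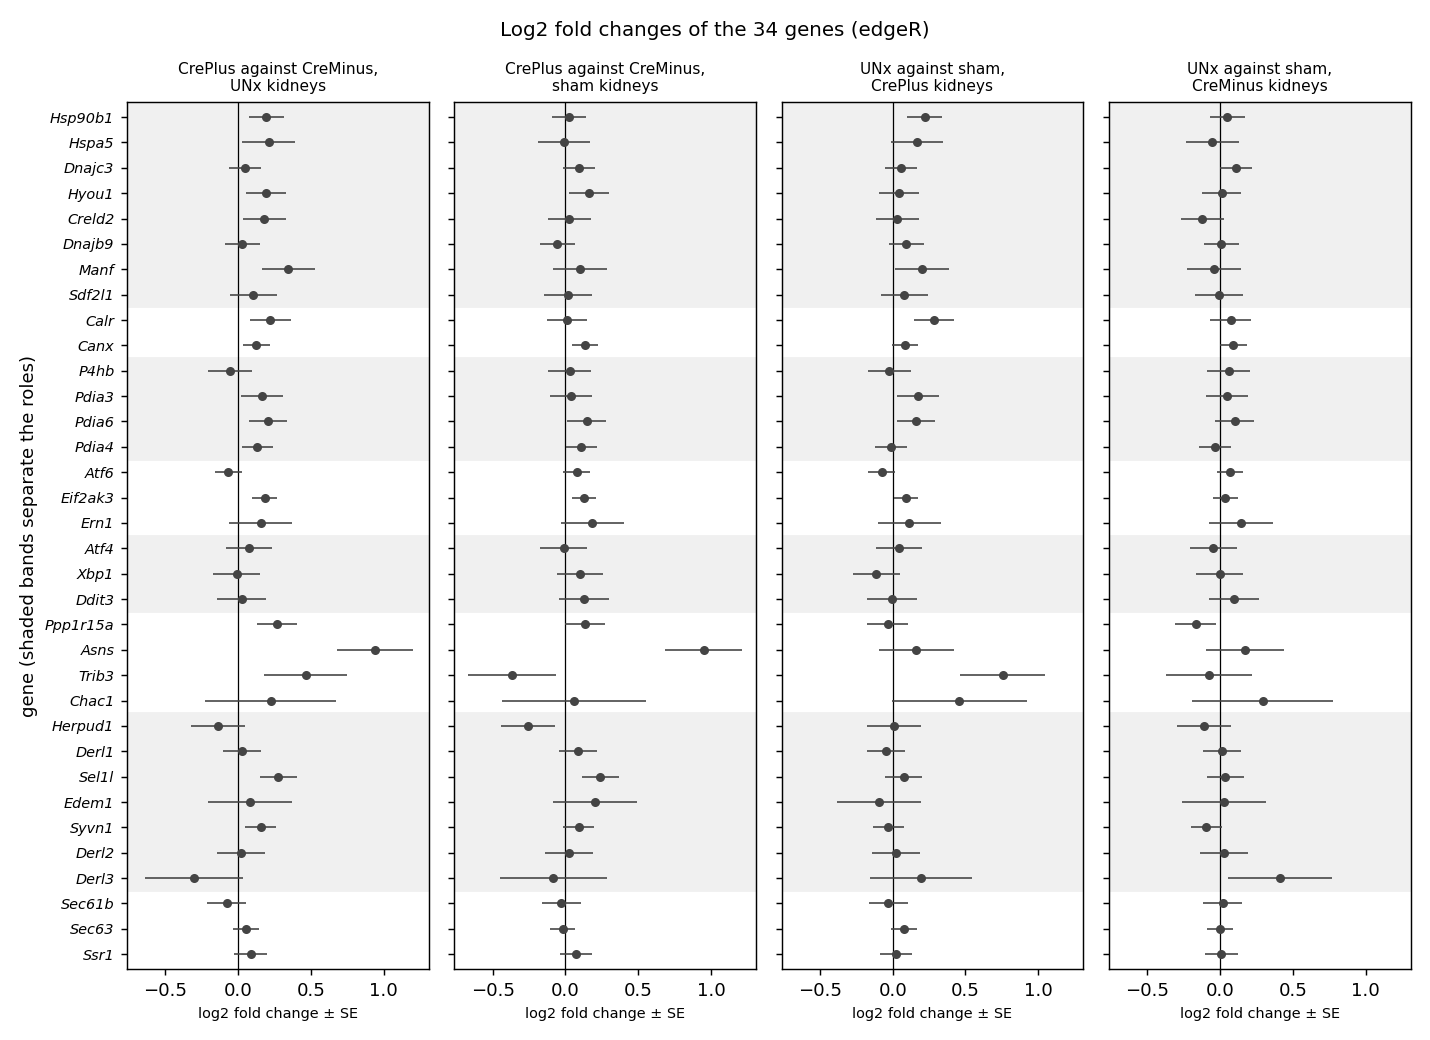
Log2 fold change ± SE of each of the 34 genes (rows, by role) in 4 comparisons, from 1 edgeR fit. Most points lie within 0.3 of 0, and Asns lies at 0.94 and 0.95 in the 2 comparisons of CrePlus with CreMinus kidneys; no point passes an adjusted p of 0.05.

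Sham kidneys showed the same comparison in animals that kept both kidneys. None of the 34 genes was called by edgeR, which called 0.0267% of all genes, and DESeq2 called none, against 0.284% of the genes it tested. At an unadjusted p under 0.05 there was again 1 (Asns), against 4.05% of all genes. Log2 fold changes were above 0 for 26 of 34, against 50.4% of all genes, with a median of 0.07 against 0.00 for all genes. The libraries did not overlap for Canx and Asns, against 8.16% of all genes. Asns had 6.65, 7.60 and 3.56 CPM in sham CrePlus kidneys, against 2.63, 3.52 and 3.09 CPM in sham CreMinus kidneys. The lowest sham CrePlus library, replicate 3, lay only just above the highest sham CreMinus library. The log2 fold change was 0.95 ± 0.27 (adjusted p = 0.789), and all 6 sham libraries had similar depth. In the authors' deposited table for the sham groups Asns had a log2 fold change of 0.43 with an adjusted p of 0.595, and none of the 34 was under 0.05. For Trib3, another gene of low counts, the deposited log2 fold change was -0.11, against -0.37 with edgeR. The deposited log2 fold changes and those of edgeR may therefore be on unlike measures. Canx had 475, 452 and 501 CPM in sham CrePlus kidneys, against 426, 442 and 434 CPM in sham CreMinus kidneys (0.13 ± 0.09). Sel1l had a log2 fold change of 0.24 ± 0.13, Ern1 of 0.18 ± 0.22, Hyou1 (a BiP-like chaperone) of 0.16 ± 0.14 and Eif2ak3 of 0.13 ± 0.08. Herpud1 had 267, 356 and 319 CPM in sham CrePlus kidneys, against 388, 415 and 326 CPM in sham CreMinus kidneys (-0.26 ± 0.19), with overlap. Trib3 had a log2 fold change of -0.37 ± 0.30, the opposite sign to that in UNx kidneys, and Hspa5 of -0.01 ± 0.18. The widest spread of Hspa5 within any group was here, with 379.5, 442 and 606 CPM in sham CrePlus kidneys, against 461, 538 and 441 CPM in sham CreMinus kidneys.

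Averaged over surgery, CrePlus against CreMinus gave its smallest p among the 34 genes for Asns. None was called by edgeR, which called 0.521% of all genes (0.387% higher), while 3 had an unadjusted p under 0.05 (Asns, Sel1l and Eif2ak3; 11.8% of all genes) and DESeq2 called 1, Asns, against 2.41% of all genes it tested. That 1 of 34 is a share close to that background. In all, 29 of 34 had a log2 fold change above 0, against 49.2% of all genes, and 33 of 34 lay within 0.3 of 0. Asns was 1.93-fold higher in CrePlus kidneys, with a log2 fold change of 0.95 ± 0.19 and an adjusted p of 0.058. Its call depended on the fit. The adjusted p was 0.000229 with DESeq2, 0.0108 with a term for sex and 0.0121 without sham CrePlus replicate 3, where the log2 fold change was 1.08. It was 0.0551 with RLE size factors, 0.0591 with no filter on low counts, 0.0744 with terms for sex and depth and 0.0919 among females alone, so Asns was not called in these. It ranged from 0.0121 to 0.179 over the 12 fits that left out 1 library. Within each sex and each surgery, every CrePlus library had more Asns than every CreMinus library. Sel1l followed with a log2 fold change of 0.26 ± 0.09 (adjusted p = 0.294), Eif2ak3 of 0.16 ± 0.06 (adjusted p = 0.351), Ppp1r15a of 0.20 ± 0.10 and Canx of 0.13 ± 0.06. On the lower side log2 fold changes were found for Herpud1 at -0.20 ± 0.13, Derl3 at -0.19 ± 0.25, Sec61b at -0.05, Dnajb9 at -0.01 and P4hb at -0.01. For these 12 libraries, tubular injury markers (14 genes) summed to 3037 to 4515 CPM in UNx CrePlus, 1631 to 4022 CPM in UNx CreMinus, 1205 to 4135 CPM in sham CrePlus and 1439 to 2743 CPM in sham CreMinus kidneys. Macrophage markers (13 genes) summed to 165 to 316, 142 to 165, 145 to 237 and 132 to 340.4 CPM in the same groups. Loop and distal tubule markers (10 genes) summed to 7564 to 11350 CPM in UNx CrePlus and 12110 to 12770 CPM in UNx CreMinus kidneys, without overlap, and to 8866 to 12130 CPM in sham CrePlus and 10860 to 12000 CPM in sham CreMinus kidneys. Plasma and B cell markers summed to 29.4 to 34.8 CPM in UNx CrePlus and 20.3 to 26.2 CPM in UNx CreMinus kidneys, again without overlap, and to 25.4 to 31.3 CPM in sham CrePlus and 23.2 to 29.4 CPM in sham CreMinus kidneys. The part of these cell types in the Asns values was not tested.

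Genes of the same pathways outside the 34 were read from 6 lists of 143 genes. With Cre, averaged over surgery, 1 of them was called, a share close to the 0.521% of all genes called. Dnajc10 (ERdj5), the reductase that opens disulfides of clients bound for degradation, rose in CrePlus kidneys (log2 fold change 0.42 ± 0.06, adjusted p = 0.00870). It had 94.3, 96.0 and 94.2 CPM in UNx CrePlus kidneys, against 74.1, 67.9 and 66.4 CPM in UNx CreMinus kidneys. In sham CrePlus kidneys it had 85.3, 96.9 and 88.1 CPM, against 63.6, 71.8 and 70.0 CPM in sham CreMinus kidneys. All 6 CrePlus libraries were above all 6 CreMinus libraries, which held for 0.882% of all genes, and 1.28% had no overlap in either direction. It was called under 17 of 18 alternatives, and among the 7 females alone its log2 fold change was 0.46 with an adjusted p of 0.136. The other 25 folding genes of its list were not called.

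The integrated stress response list, which holds further ATF4 targets, had none of 30 tested genes called. With Cre, averaged over surgery, 24 of 30 had a log2 fold change above 0, against 49.2% of all genes. Gdf15, a stress-induced hormone, had 9.30, 15.2 and 7.87 CPM in UNx CrePlus kidneys, against 5.38, 5.66 and 4.10 CPM in UNx CreMinus kidneys. In sham CrePlus kidneys it had 8.14, 7.80 and 5.09 CPM, against 3.62, 4.37 and 5.10 CPM in sham CreMinus kidneys. The log2 fold change averaged over surgery was 0.89 ± 0.19 (adjusted p = 0.0852). Gpt2, a mitochondrial alanine transaminase, had a log2 fold change of 0.51 ± 0.13 (adjusted p = 0.152). None of the 20 degradation genes was called, with log2 fold changes for Fam129a (Niban) at 0.72 (adjusted p = 0.184) and Tmub1 at -0.17. None of the 27 translocation and signal peptide genes was called, with log2 fold changes for Sec61a1 at 0.15 and Rpn2 at 0.16. None of 24 tested regulators was called, with log2 fold changes for Wfs1 at -0.16 and Map3k5 at -0.14, and none of the 13 cytosolic heat shock genes, with Hspe1 at -0.11 and Bag3 at 0.09.

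**Figure D3:**
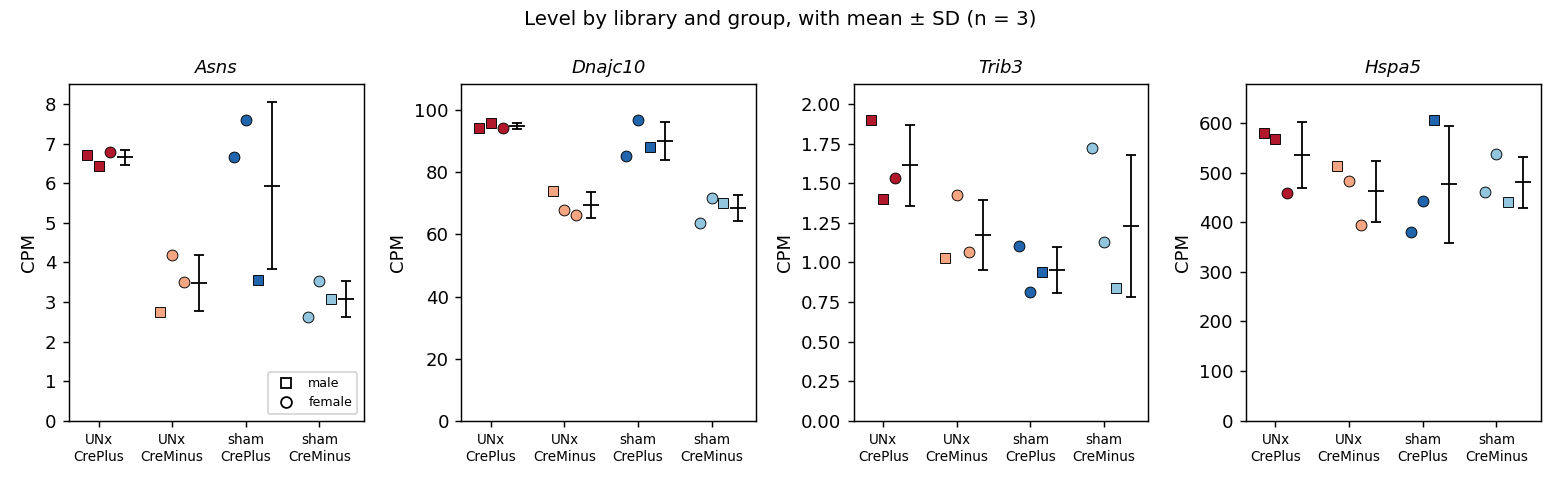
CPM of Asns, Dnajc10, Trib3 and Hspa5 in each library (squares male, circles female) by group, with the mean ± SD of 3 libraries beside the points. All CrePlus points of Dnajc10 (85.3 to 96.9) lie above all CreMinus points (63.6 to 74.1); Asns separates in the same direction except for sham CrePlus replicate 3 at 3.56, and Hspa5 overlaps throughout.

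UNx and sham kidneys were compared to see what the removal of 1 kidney does to these genes after 4 weeks. In CrePlus kidneys none of the 34 was called by edgeR or by DESeq2, where edgeR called 0.0% and DESeq2 0.0774% of all genes, and 1 had an unadjusted p under 0.05, against 6.83% of all genes. That gene was Trib3, with 1.90, 1.40 and 1.53 CPM in UNx CrePlus kidneys, against 1.10, 0.813 and 0.939 CPM in sham CrePlus kidneys. The groups did not overlap, and the log2 fold change was 0.76 ± 0.29 (adjusted p = 0.692). Hsp90b1 was the other gene of 34 without overlap, against 9.78% of all genes. It had 568, 613 and 569 CPM in UNx CrePlus kidneys, against 438, 504 and 561 CPM in sham CrePlus kidneys (0.22 ± 0.12). Calr had a log2 fold change of 0.28 ± 0.14, Pdia3 of 0.17 ± 0.15 and Pdia6 of 0.16 ± 0.13. Log2 fold changes below 0 were found for Xbp1 at -0.11 ± 0.16, Edem1 at -0.09 ± 0.29, Atf6 at -0.08 ± 0.09, Derl1 at -0.05 ± 0.13 and Syvn1 at -0.03 ± 0.11. In all 24 of 34 were above 0, against 46.3% of all genes. The authors' deposited table for this comparison had 15 genes under 0.05, none of them among the 34. It gave no adjusted p for Trib3, Chac1 and Derl3, and the authors' unadjusted p from DESeq2 for Trib3 was 0.0315. All 3 UNx CrePlus libraries were deep and all 3 sham CrePlus libraries shallow, so depth and surgery cannot be told apart in this comparison.

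In CreMinus kidneys none of the 34 was called by edgeR or DESeq2, edgeR again calling 0.0% and DESeq2 0.0101% of all genes, and none had an unadjusted p under 0.05, against 1.3% of all genes. Log2 fold changes were above 0 for 23 of 34, against 51.4% of all genes. Of smallest p among the genes above 0 were Derl3 with a log2 fold change of 0.42 ± 0.36, Dnajc3 (a co-chaperone that also inhibits PERK) at 0.11 ± 0.11, Pdia6 at 0.10 ± 0.13, Canx at 0.09 ± 0.09 and Atf6 at 0.07 ± 0.09. The libraries did not overlap for Ppp1r15a and Syvn1, against 4.86% of all genes. Ppp1r15a had 13.6, 13.75 and 14.3 CPM in UNx CreMinus kidneys, against 16.6, 15.6 and 14.45 CPM in sham CreMinus kidneys (-0.17 ± 0.14). Syvn1 had a log2 fold change of -0.09 ± 0.11, Creld2 (a secreted chaperone) of -0.12 ± 0.15, Herpud1 of -0.11 ± 0.19 and Pdia4 of -0.03 ± 0.11. Trib3 had 1.03, 1.43 and 1.06 CPM in UNx CreMinus kidneys, against 1.72, 1.13 and 0.842 CPM in sham CreMinus kidneys, with overlap.

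Averaged over Cre status, none of the 34 was called by edgeR or DESeq2, edgeR calling 0.0% and DESeq2 0.054% of all genes, and none had an unadjusted p under 0.05, against 5.66% of all genes. The median log2 fold change was 0.04 for the 34 and -0.00 for all genes, and 23 of 34 were above 0, against 48.9% of all genes. Calr had a log2 fold change of 0.18 ± 0.10, Trib3 of 0.34 ± 0.21, Hsp90b1 of 0.13 ± 0.08, Pdia6 of 0.13 ± 0.09 and Canx of 0.09 ± 0.06. The 5 of smallest p on the lower side, Ppp1r15a, Syvn1, Xbp1, Creld2 and Herpud1, had log2 fold changes between -0.10 and -0.05. Among the 6 other lists none was called with surgery. Of smallest p among the integrated stress response genes were Psat1, of serine synthesis, with a log2 fold change of 0.85 ± 0.18 and Mthfd2, a mitochondrial folate enzyme, with one of 0.69 ± 0.15 (adjusted p = 0.875 for both), which are also known as ATF4 targets. Psat1 had 65.3, 54.2 and 46.2 CPM in UNx CrePlus kidneys, against 38.7, 30.8 and 26.1 CPM in sham CrePlus kidneys, and 55.65, 32.7 and 28.2 CPM in UNx CreMinus kidneys, against 17.9, 23.8 and 20.7 CPM in sham CreMinus kidneys. Its highest values were those of the deep libraries, which were all UNx, so depth and surgery are not fully separated here. The shallow UNx CreMinus libraries, at 32.7 and 28.2 CPM, lay above those of sham CreMinus and within the range of sham CrePlus. Of the remaining lists, Pdia5 had a log2 fold change of 0.34, Calu of 0.15, Sec24d of 0.21, Ube2j1 of 0.09, Ostc of 0.19, Sec11c of 0.13, Bak1 of 0.25, Eif2ak2 of 0.15, Hspa4l of 0.19 and Hsp90aa1 of 0.24.

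The interaction term asks whether the difference with Cre is another one after nephrectomy than after sham surgery. None of the 34 was called by edgeR or DESeq2, none had an unadjusted p under 0.05 (1.85% of all genes had), and edgeR and DESeq2 each called 0.0% of all genes. Values above 0 were found for 21 of 34, against 45.3% of all genes. Trib3 had the largest interaction on the log2 scale, 0.83 ± 0.41 (adjusted p = 1.0), from log2 fold changes of 0.46 in UNx kidneys and -0.37 in sham kidneys. On the same scale Manf had 0.24 ± 0.26, Hspa5 0.22 ± 0.25, Calr 0.21 ± 0.20 and Hsp90b1 0.17 ± 0.17. On the other side were Derl3 at -0.22 ± 0.50, Atf6 at -0.14 ± 0.13, Xbp1 at -0.11 ± 0.23, Ddit3 at -0.10 ± 0.24 and P4hb at -0.08 ± 0.21. Asns had an interaction of -0.01 ± 0.36 on the log2 scale, its log2 fold changes with Cre being 0.94 in UNx and 0.95 in sham kidneys.

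Within groups, kidneys with more Hspa5 also had more of several other chaperones. Hspa5 was taken as the index, each gene's log2 CPM was set relative to its group mean, and Pearson's r was computed over the 12 libraries. Of the other 33 genes, 8 had an r above 0.8, against 0.768% of 14969 tested genes, and the median r was 0.61 against -0.06 for all genes. The 8 were Manf (0.93), Xbp1 (0.91), Hyou1 (0.91), Creld2 (0.90), Calr (0.87), Pdia4 (0.86), Hsp90b1 (0.84) and Pdia3 (0.84). They are secreted and resident chaperones, isomerases and the factor XBP1 that is known to induce many of them. In sham CrePlus kidneys, where Hspa5 had 379.5, 442 and 606 CPM in replicates 1, 2 and 3, Manf had 33.3, 38.8 and 55.15 CPM, Xbp1 92.2, 113.5 and 148 CPM, and Hyou1 99.35, 98.6 and 136 CPM in the same libraries. In the ATF4 and CHOP arm r was 0.33 for Atf4 itself, 0.02 for Trib3, -0.02 for Ddit3, -0.17 for Chac1, -0.28 for Ppp1r15a and -0.55 for Asns. Among sensors, r was 0.61 for Eif2ak3, 0.54 for Atf6 and 0.10 for Ern1.

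By an exact permutation of libraries within groups (1296 orders, two-sided), 9 of 33 had an unadjusted p under 0.05, against 7.55% of all genes. Manf had p = 0.00231, with Spearman's rho 0.92 (p = 0.00154), and Xbp1 had p = 0.00231, with rho 0.90 (p = 0.00231). None passed adjustment over the 14969 genes, where the smallest p the permutations can give is 0.000772, and the adjusted p was 0.520 for r and 0.633 for rho for each of the 8. The lowest and the highest Hspa5 library were both sham CrePlus, replicates 1 and 3. Without these 2 libraries r was 0.59 to 0.90 for the 8 genes. Centred on group and sex it was 0.56 to 0.85, and among the 7 female libraries 0.62 to 0.99. A library alone of its sex in its group adds nothing to these last 2 fits, so their r rest on few libraries. Centred on group and sex, Dnajb9 (0.93), Eif2ak3 (0.92) and Herpud1 (0.88), outside the 8, had a higher r than any of the 8. Canx, also outside the 8, fell from 0.66 to 0.36. Which genes had the highest r with Hspa5 therefore changed with the setting. Asns changed most over all these settings, with r = 0.00 without the 2 libraries and 0.93 when centred on group and sex. In the latter, Ddit3 had 0.54 and Atf4 -0.32. Among the 8 other genes with an ER stress element in the promoter, r ran from -0.02 (Derl3) to 0.90 (Creld2) with a median of 0.76. In the 21 with a promoter and no such element, it ran from -0.55 to 0.91 with a median of 0.40, as a description without a test.

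**Figure D4:**
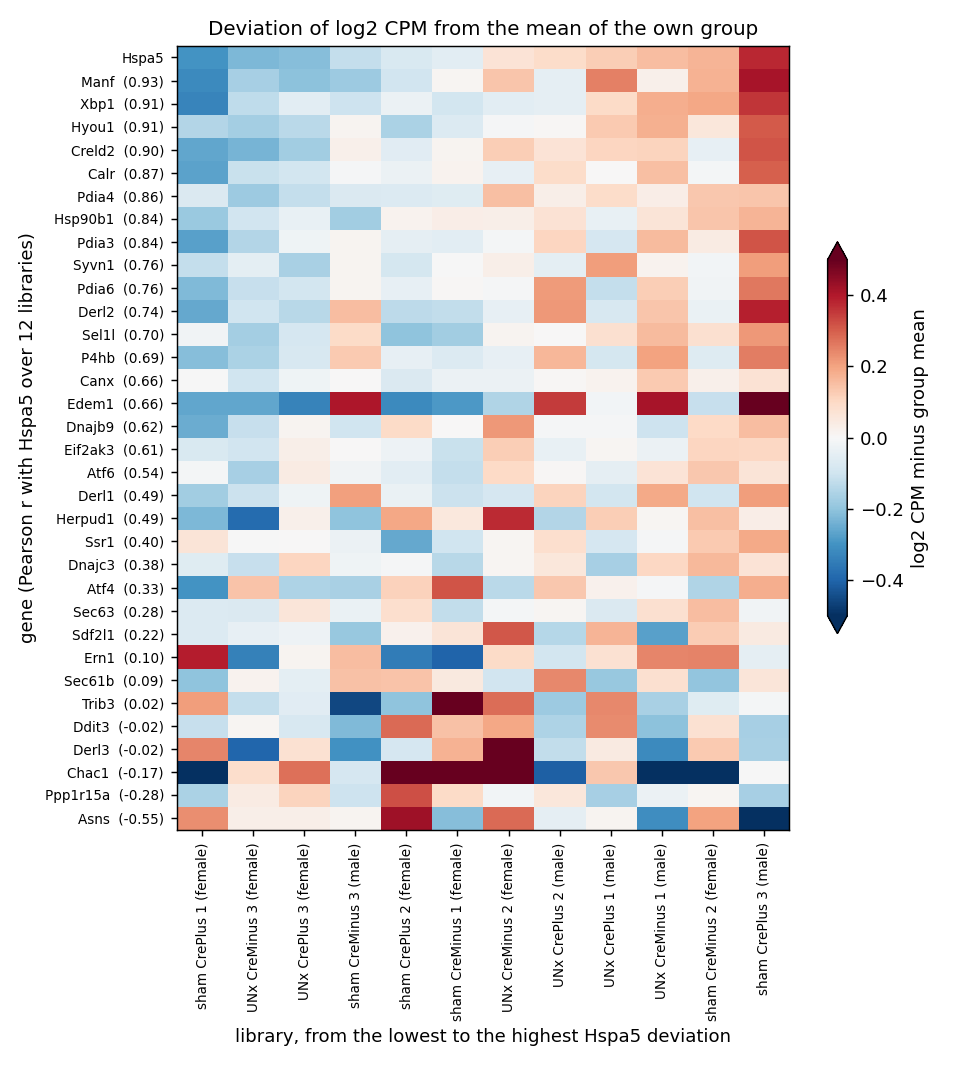
Deviation of log2 CPM from the group mean for Hspa5 and the other 33 genes (rows, by falling Pearson r with Hspa5) in the 12 libraries (columns, by rising Hspa5); red is above and blue below the group mean. The upper rows run from blue at sham CrePlus replicate 1 to red at sham CrePlus replicate 3, and the rows from Trib3 (r = 0.02) to Asns (-0.55) do not.

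Sex, read from Xist and Y-linked counts and not given in the labels, was a further source of variation. In a model with the 4 group means and a term for sex, 5 of 34 were called by edgeR, all higher in male kidneys, against 20.4% of all genes called and 10.5% called higher in males. The share of the 34 lay between these 2 shares of all genes. The comparison was added after the data were seen, and sex was not part of the design. Edem1 rose most in males. Its lowest, median and highest values were 101.7, 128 and 160 CPM in 5 male kidneys (129 ± 20.7, SD) and 77.5, 85.8 and 89.2 CPM in 7 female kidneys (84.1 ± 4.33). It was the only one of the 34 whose male and female libraries did not overlap, against 9.43% of all genes and 5.2% that were higher in males without overlap. The log2 fold change was 0.65 ± 0.08 (adjusted p = 0.000261), and it was called in all 16 alternatives, with 0.58 to 0.70.

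The other 4 were Derl2 (0.31 ± 0.08, adjusted p = 0.0169), Derl1 (0.23 ± 0.06, adjusted p = 0.0240), Hyou1 (0.24 ± 0.07, adjusted p = 0.0350) and P4hb (0.25 ± 0.08, adjusted p = 0.0385). Derl1 and Derl2 encode derlins, which form the channel for retrotranslocation. Derl2 had 41.0, 47.2 and 55.0 CPM (lowest, median, highest) in males and 35.1, 39.3 and 41.7 CPM in females, and P4hb had 768, 916 and 984 CPM in males and 711, 776 and 822 CPM in females. These groups overlapped. The calls rested on few libraries, since without sham CrePlus replicate 3 only Edem1 was called, and with a depth term Edem1 and Derl2. Without UNx CreMinus replicate 1 or sham CreMinus replicate 1, 2 were called, and without UNx CreMinus replicate 3 or sham CrePlus replicate 1 or 2, 3 were called. All 4 ATF4 and CHOP targets were lower in males and none was called, with a log2 fold change for Asns of -0.37 ± 0.17 (adjusted p = 0.157). Of the lists, to be read against the 10.5% of all genes called higher in males, 8 folding genes were called higher and 1 lower in males of 26, among them Dnajb11 (0.36), Txndc11 (0.26), Prkcsh (0.23) and Txndc5 (-0.42). In degradation 5 of 20 were called higher, led by Edem3 (0.35) and Vcp (0.32), and in translocation 6 of 27, led by Sec11a (0.77). In the integrated stress response list 4 of 30 were called higher and 2 lower, with a median log2 fold change of -0.16 and with Stbd1 (2.08), Shmt2 (0.47), Aars (0.34) and Gpt2 (-0.37) first by p. Of 24 regulators 1 was called higher (Atf6b, 0.18) and 2 lower (Eif2ak4, -0.37, and Creb3l1, -0.55), and of 13 heat shock genes 1 higher (Hspd1, 0.35). Proximal tubule markers summed to 34270 to 63990 CPM in male and 24350 to 29650 CPM in female kidneys. Without Kap, an androgen-driven gene, they summed to 21980 to 26450 CPM in male and 20140 to 22520 CPM in female kidneys. Collecting duct markers (10 genes) summed to 479 to 794 CPM in male and 856 to 1290.0 CPM in female kidneys, without overlap, and podocyte markers (8 genes) to 428 to 689 CPM in male and 647 to 867 CPM in female kidneys. Loop and distal tubule markers (10 genes) summed to 7564 to 12110 CPM in male and 10860 to 12770 CPM in female kidneys. The part of these cell types in the 5 genes was not tested.

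**Figure D5:**
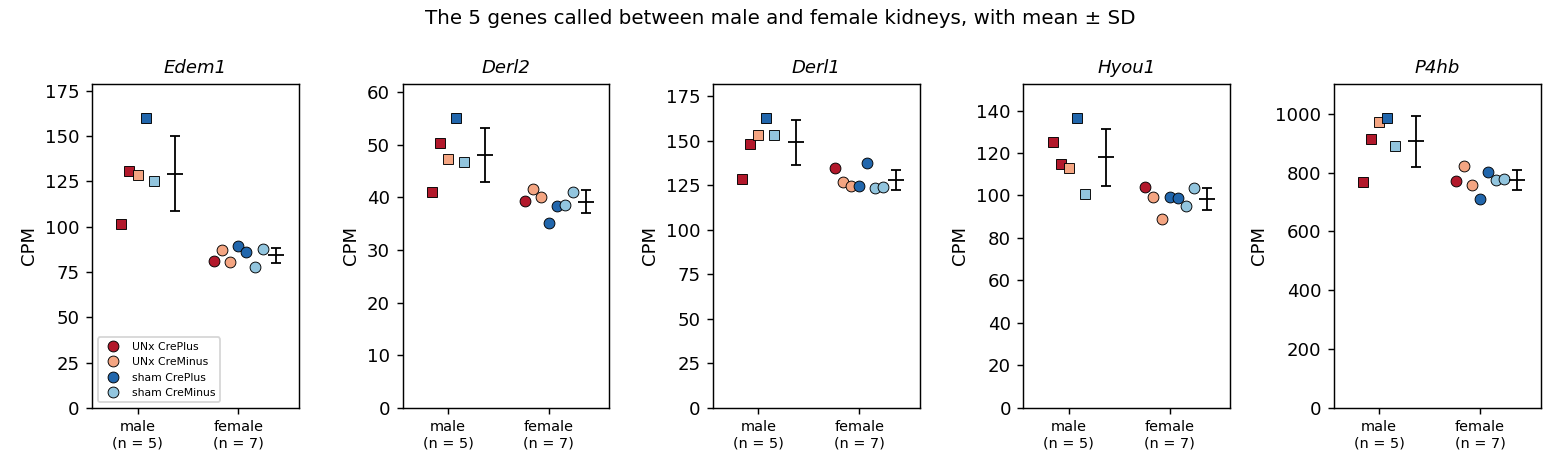
CPM of the 5 genes called between the sexes in 5 male and 7 female kidney libraries, coloured by group, with mean ± SD beside the points. Edem1 (101.7 to 160 CPM in males, 77.5 to 89.2 in females) is the only one without overlap.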

How the data were processed

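Whole kidneys of 12 mice (4 groups of 3) were profiled by RNA-seq with an unstranded low-input kit (SMART-Seq v4) from total RNA, per the labels' protocols. The deposited count of reads per gene was used in every test. The submitters' processing notes name FastQC 0.11.5, cutadapt 1.11, HTSeq and DESeq2 with build GRCm38 (mm10). No aligner, annotation or strand setting was given in the sources used here. The 6 deposited tables repeat the same counts and add the authors' mean normalized signal (baseMean), log2 fold changes with their errors, a test score (stat) and each p-value, which the authors deposited from DESeq2. Of 24067 rows, 24062 genes remained after repeated symbols were left out.

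Counts were tested with edgeR 4.0.16 (quasi-likelihood, TMM factors 0.9255 to 1.0504; R 4.3.3) in 1 fit of 4 group means over 14970 genes that passed filterByExpr, with Benjamini-Hochberg adjustment over all of them and a threshold of 0.05. The standard error is the fold change over the square root of F. Library totals of 18914300 to 42785476 set the precision. DESeq2 1.42.0 and other settings were alternatives. The script was tested on simulated data. CPM per kb used GENCODE exon lengths. The members and the lists were chosen with earlier results of these data known. Genes were named where called, where among the 5 higher or 5 lower members of smallest p in a comparison, or always for the sensors, the factors and the leading members of each role. From each other list up to 4 called genes, or the 2 of smallest p where none was called, were named. Further members were named after their values were seen. Protein sequences were not used here. The p-values cover the spread between libraries of different mice, with technical spread included. Nothing in the labels says that replicates came from separate litters or days, so spread between these may not be covered.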

Additional observations from a re-analysis of the deposited data

How the results depend on the processing

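No called value of a single gene changed sign under any alternative, whereas uncalled ones near 0 did (Edem1 with Cre in UNx kidneys had log2 fold changes of -0.12 to 0.32). Of the counts of genes called with Cre, that in UNx kidneys (21) was 13 with DESeq2-type size factors (RLE), 188 with DESeq2, 112 with a sex term, 8 with sex and depth terms, 9 with the 2 groups alone, 5 with females alone and 6 to 48 when 1 library was left out. That in sham kidneys (4) was 42 with DESeq2, 10 with a sex term, 0 with the 2 groups alone, 7 with females alone and 0 to 3 with 1 library left out. The count averaged over surgery (78) was 385 with DESeq2, 295 with a sex term, 27 with females alone and 25 to 136 with 1 library left out. Surgery gave 0 genes with edgeR and 10 in CrePlus, 2 in CreMinus and 8 averaged with DESeq2; the averaged count was 0 to 14 with 1 library left out, 14 being without UNx CreMinus replicate 3. Of the 34, 1 (Asns) was called with DESeq2 in UNx kidneys, and 1 averaged over surgery with DESeq2, with a sex term and without sham CrePlus replicate 3 (0 to 1 over the left-out libraries). Between the sexes, the counts (3051 genes, 5 of the 34) were 1941 and 2 with a depth term, and 1458 to 3289 and 1 to 5 with 1 library left out. Females alone, Kap left out and the comparison of the sexes were chosen after seeing the data. The cause of these shifts was not tested. RLE scaling moved the median log2 fold change of all genes by at most 0.0089.

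Depth limits Chac1, Derl3 and Trib3, whose lowest counts were 7, 10 and 17. No paired analysis was possible because the replicate numbers were given in accession order and pair no samples.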
